A study of Mus musculus with 12 samples.

Results

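Carbonic anhydrases are zinc enzymes that interconvert CO2 and bicarbonate with release or uptake of a proton. The isoforms differ in where they act: Car1, Car2 and Car3 are cytosolic, Car4 is anchored to the outer face of the plasma membrane, Car5a lies in the mitochondrial matrix, Car14 is a transmembrane enzyme with its active site outside the cell, and Car8 is a carbonic anhydrase-related protein that lacks the catalytic zinc and binds the inositol trisphosphate receptor. Car1 and Car2 are the classic red cell isoforms, whereas Car3, Car5a and Car14 are known from hepatocytes, where Car5a supplies bicarbonate to the mitochondrial steps of ureagenesis and gluconeogenesis, and Car3, a slow enzyme, is abundant in muscle, fat and liver.

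These 7 genes, chosen by their symbols among the 32285 genes of the count tables, are described here in the neonatal mouse liver with and without phlebotomy-induced anemia (PIA). Car3 was selected because it was lower in many cell classes in anemia, so its difference between the groups is given as a description with no test, and the tests below concern the other 6 genes. Another 9 carbonic anhydrase genes (Car5b, Car6, Car7, Car9, Car10, Car11, Car12, Car13 and Car15) serve as a comparison.

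To investigate the anemic neonatal liver, single-cell RNA sequencing was performed on whole dissociated livers of C57BL6/J pups of both sexes nursed by the dam, collected on postnatal day 11 (n = 6 mice per group, 1 library per mouse, all under 1 batch label). PIA mice were bled from the facial vein at 20 µL per g body weight every 2 days from day 2 to day 10, towards a hematocrit of 20 to 24%. Control mice were not bled but received a daily needle stick and the same handling. Per the study's methods the livers were rinsed to remove blood, no cells were sorted, and cells were enriched only by low-speed centrifugation.

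The 12 libraries held 46252146 to 74545930 unique molecular identifiers (UMIs, each counting 1 captured RNA molecule) and gave 206146 cells, 14184 to 21186 per mouse. Of 82 clusters, 43 were named by the cell type whose fixed markers scored highest and were grouped into 15 classes with 178751 cells (86.7%). In some of them markers of a related type were high as well, such as pre-B markers in the B-like cluster c1. The remaining clusters stayed unnamed. Class names mean resemblance to the markers, here as "erythroid-like", and the classes may differ from those of the study since they were rebuilt. Hepatocyte-like cells numbered 17326, endothelial-like cells 24803 and erythroid-like cells 28866, of which 6655 came from control and 22211 from anemic livers. In 2 anemic mice, anemia 2 and anemia 3, monocyte-like cells numbered 4773 and 2036 against at most 415 in any other mouse, and control 3 gave only 197 erythroid-like cells. Any 2 libraries shared 51 to 121 cell barcodes.

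Levels are given as CPM, which is how many UMIs a gene would have if each class and mouse held 1000000 UMIs over all genes. The member genes were left out of the genes used for clustering. Each member had a class in which it was highest, and the order differed from gene to gene, as the map of levels over classes shows. Levels are compared between classes for 1 gene at a time and not between genes.

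**Figure D1:**
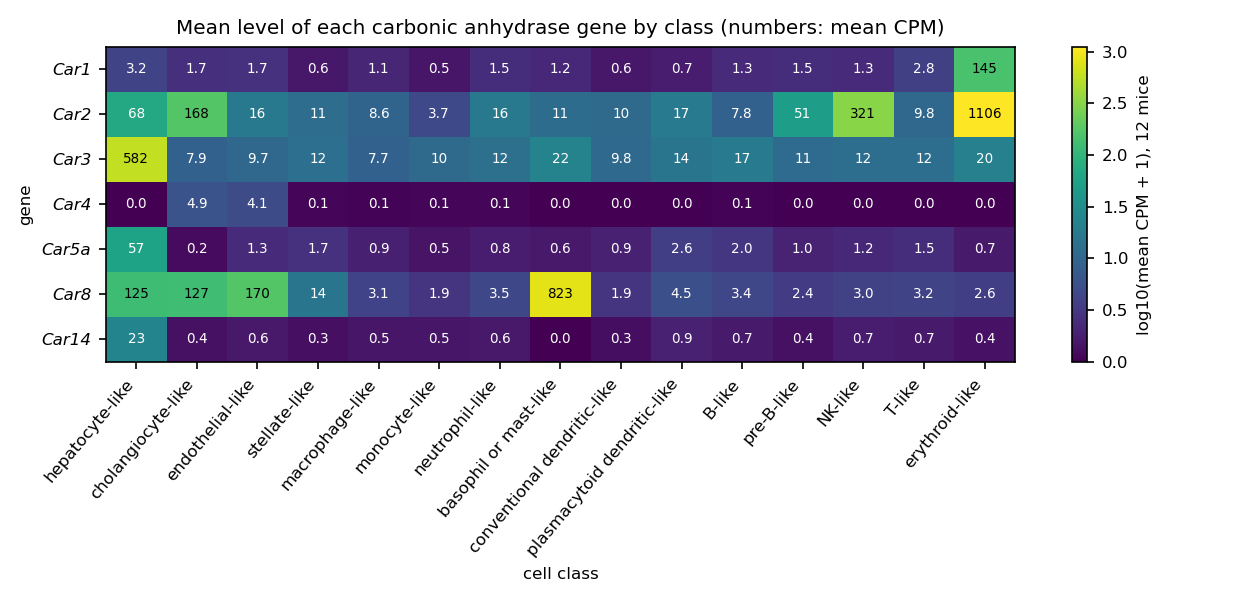
Heat map of the mean level of the 7 carbonic anhydrases (rows) in the 15 cell classes (columns) over 12 mice; colour is log10(mean CPM + 1) and the printed numbers are mean CPM. Car1 and Car2 peak in erythroid-like cells (means of 145 and 1106 CPM), Car3, Car5a and Car14 in hepatocyte-like cells (582, 57.1 and 22.6 CPM), Car8 in basophil or mast-like cells (823 CPM) and Car4 in cholangiocyte-like and endothelial-like cells (4.93 and 4.12 CPM).

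Car1, the low-activity red cell isoform, was highest in erythroid-like cells among the 15 named classes, while the unnamed cluster c52 of 670 cells, led by Pf4, Slc25a21 and Ppbp, held it at 1457 CPM (6679 UMIs against 4601 in erythroid-like cells). Its level in erythroid-like cells was 145 ± 129 CPM (SD, n = 12), from 40.3 to 529 CPM over mice. The next class, hepatocyte-like cells, stood at 3.24 ± 3.70 CPM (0.519 to 14.1) and did not overlap with it. The other classes stood at or below 2.82 CPM and overlapped with each other.

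Car2, the high-activity cytosolic isoform, was also highest in erythroid-like cells, at 1106 ± 378 CPM (SD, n = 12; 616 to 2012). NK-like cells came next at 321 ± 40.9 CPM (260 to 398), below every erythroid value. Cholangiocyte-like cells, in which carbonic anhydrase serves bicarbonate secretion into bile, followed at 168 ± 62.2 CPM (77.1 to 288) and overlapped with NK-like cells. Hepatocyte-like cells held 67.6 ± 8.87 CPM (53.1 to 80.3) and pre-B-like cells 50.5 ± 5.52 CPM (42.5 to 59.8), neighbours that overlapped. All 10 other classes averaged at most 17.1 CPM, and single mice in neutrophil-like (up to 43.4 CPM) and basophil or mast-like cells (up to 45.5 CPM) reached into the pre-B range.

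Car3 and the 2 other hepatocyte isoforms were all highest in hepatocyte-like cells. Car3 stood at 582 ± 323 CPM in hepatocyte-like cells (SD, n = 12; 114 to 1234), against means of 7.70 to 22.1 CPM in the other 14 classes. The second class, basophil or mast-like cells, rested on 24 UMIs of Car3 and reached 129 CPM in 1 mouse, which lies within the hepatocyte range. Mitochondrial Car5a stood at 57.1 ± 13.1 CPM in hepatocyte-like cells (26.2 to 78.1) and at most at a mean of 2.63 CPM elsewhere, with no overlap. Transmembrane Car14 stood at 22.6 ± 6.13 CPM in hepatocyte-like cells (9.20 to 29.7) and at or below 0.911 CPM elsewhere, again with no overlap.

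Car8, the non-catalytic family member, had 4 high classes. Basophil or mast-like cells held 823 ± 264 CPM (SD, n = 12; 249 to 1199), above every value of any other class. Endothelial-like cells held 170.2 ± 56.4 CPM (69.4 to 231), cholangiocyte-like cells 127 ± 21.3 CPM and hepatocyte-like cells 125 ± 30.3 CPM, and these neighbours overlapped. Stellate-like cells at 14.4 ± 5.07 CPM lay below all 4, and the other 10 classes averaged at most 4.54 CPM.

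Car4, the membrane-anchored isoform of capillary and epithelial surfaces, was sparse. Cholangiocyte-like cells held 26 UMIs (4.93 ± 3.69 CPM, SD, n = 12) and endothelial-like cells 484 UMIs (4.12 ± 7.09 CPM), and these overlapped. No UMI of Car4 was counted in T-like, erythroid-like, plasmacytoid dendritic-like, conventional dendritic-like or basophil or mast-like cells. The other classes averaged at most 0.146 CPM. Of the 484 endothelial UMIs, 440 lay in cluster c28, which Ccl21a, Mecom and Vwf set apart from the sinusoidal clusters, and its level of 26.7 ± 40.8 CPM varied more between mice than its mean.

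Car13, Car1, Car3 and Car2 lie beside each other in that order on chromosome 3, within 14641727 to 14900770 of GRCm38. Car1 is on the minus strand (14766216 to 14808368) and the other 3 are on the plus strand, with Car3 at 14863512 to 14872523 and Car2 at 14886273 to 14900770. Car14 lies elsewhere on chromosome 3 (95897768 to 95904691), Car8 on chromosome 4 (8143362 to 8239041), Car5a on chromosome 8 (121916126 to 121944904) and Car4 on chromosome 11 (84957786 to 84966044). Despite their adjacency, Car1 and Car2 peaked in erythroid-like cells, Car3 in hepatocyte-like cells, and Car13 reached 11.3 to 19.4 CPM in pre-B-like cells. Among the transcripts of all 16 carbonic anhydrase genes, only the pairs Car2 and Car13 and Car5a and Car5b shared any 30-base stretch (1 and 3 stretches), so few reads could be split between family members.

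To compare anemic with control livers, UMIs were summed per mouse and class and tested by edgeR's quasi-likelihood test, with p-values adjusted over all genes of the class. The 6 tested members gave 90 pairs of a gene and a class, of which 38 had enough UMIs for a test. Of these, 4 passed an adjusted p of 0.05, 3 higher and 1 lower in anemia, against 6.59% of all 161816 gene and class pairs tested. An unadjusted p under 0.05 was reached by 14 of the 38, against 18.7% of all pairs, and the groups did not overlap in 3 (Car8 in endothelial-like, hepatocyte-like and B-like cells), against 4.26% of all pairs. Without anemia 2 and anemia 3, 6 of 36 pairs passed, against 6.59% of the 158988 pairs of all genes in that fit. The 4 calls were Car8 in endothelial-like and in hepatocyte-like cells and Car2 in B-like and in neutrophil-like cells. Car1, Car4, Car5a and Car14 had no call at the level of classes in 6, 1, 4 and 2 tested classes.

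**Figure D2:**
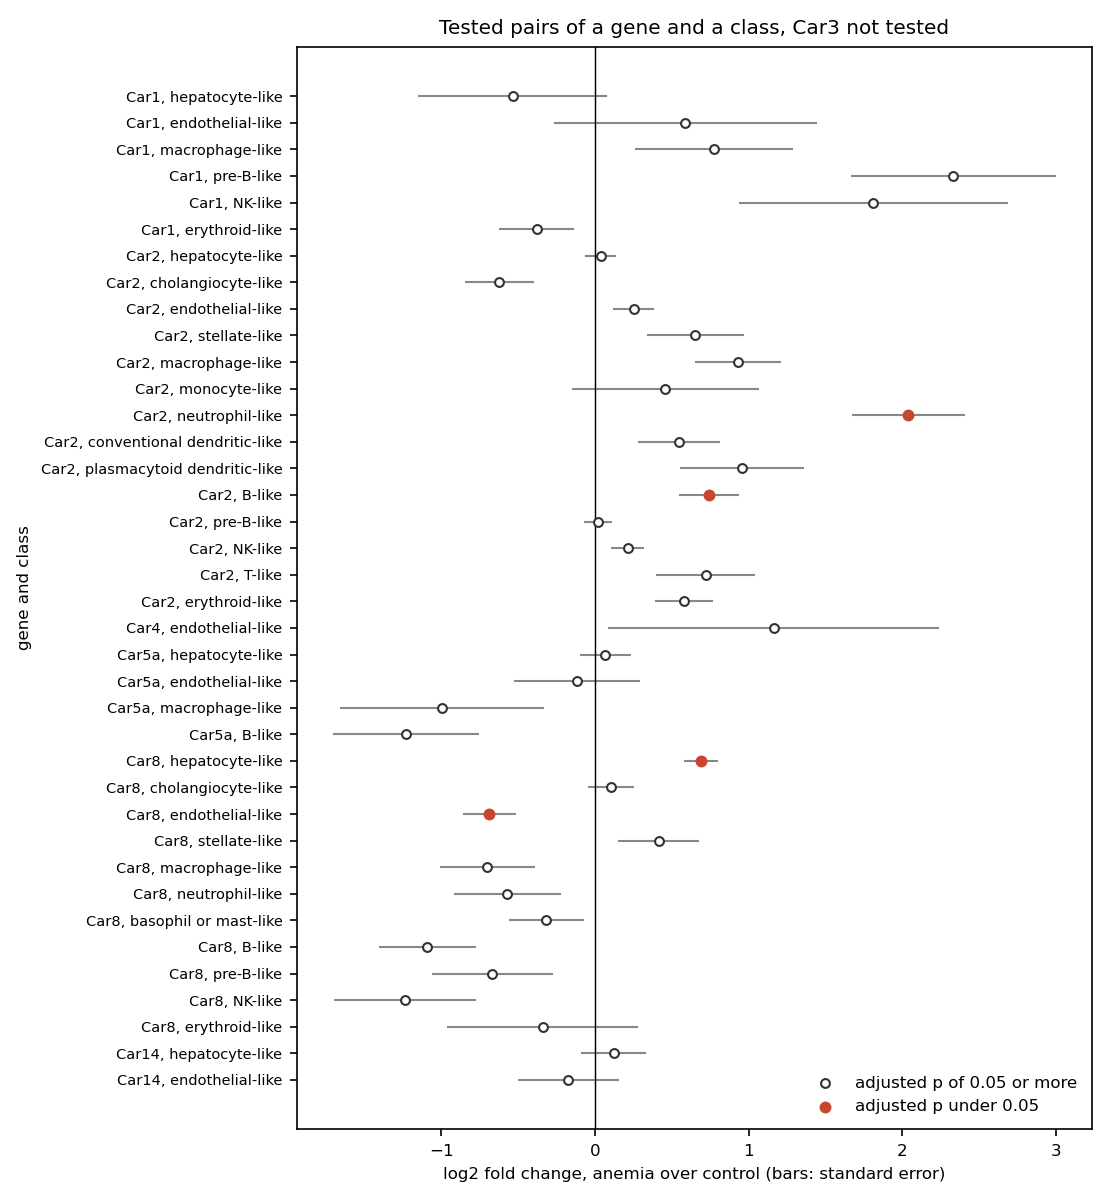
Log2 fold change of anemia over control (horizontal axis) for the 38 tested pairs of a member other than Car3 and a cell class; points are edgeR estimates from 6 mice per group, bars are 1 standard error, and filled points passed an adjusted p of 0.05. Car8 is lower in endothelial-like cells (-0.69) and higher in hepatocyte-like cells (0.69), and Car2 is higher in B-like and neutrophil-like cells (0.74 and 2.04).

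The red cell isoforms were first followed over the erythroid-like clusters. The 5 erythroid-like clusters differed in the share of their UMIs that came from 4 globin genes. It was 11.7% in c41, 52.6% in c51, 86.2% in c8, 87.4% in c3 and 88.0% in c6. Cluster c41, led by Rhd, Slc25a21 and Hemgn, held Car1 at 908 ± 359 CPM and Car2 at 3712 ± 319 CPM (SD, n = 12). In c51, Car2 was still at 2733 ± 466 CPM, whereas Car1 was at 17.0 CPM. In the globin-rich clusters Car2 was at 800.0 ± 106 CPM (c8), 579 ± 96.0 CPM (c6) and 314 ± 84.0 CPM (c3), and Car1 at 4.19, 2.37 and 1.63 CPM. Car2 did not fall with globin share throughout, since c6 had more globin and more Car2 than c3. Of the 4601 erythroid UMIs of Car1, 4509 came from c41, which made up 3.83% of the control and 3.56% of the anemic erythroid-like cells, pooled over mice. As a mean over mice its share was 6.42 ± 5.43% in control and 3.85 ± 2.30% in anemia (SD).

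In erythroid-like cells as a whole, neither isoform passed the test. On simulated counts, the test in this class recovered 0 of 49 changes of 0.5 and 37.6% of changes of 1 on the log2 scale. These rates are over randomly drawn genes of the class and not for Car1 or Car2 themselves. A missing call may therefore be little information on changes of this size. Car2 was at 616 to 2012 CPM in control mice (median 917) and at 724 to 1387 CPM in PIA mice (median 1184). The groups overlapped, and the highest control was control 3, the mouse with 197 erythroid-like cells. The log2 fold change was 0.58 (SE 0.19, adjusted p = 0.158, edgeR), in a class where 0.811% of genes were called. DESeq2 gave 0.56 (adjusted p = 0.00409), so this call depends on the test. A joint limma model of all classes, patterned on the study's methods, gave 0.61 (adjusted p = 5.16e-11). That model has no term for the mouse, so profiles of the same mouse count as independent and its p-values can be too small.

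Car1 was at 81.8 to 529 CPM in control erythroid-like cells (median 131) and at 40.3 to 144 CPM in anemic ones (median 94.4). The groups overlapped, with control 3 again far above the rest. Its log2 fold change was -0.38 (SE 0.24, adjusted p = 0.553), which turned to 0.21 with called doublets left out. In cluster c41, which held most of its UMIs in this class, the value was -0.39 (SE 0.22, adjusted p = 0.519). The unnamed cluster c52, which held more Car1 UMIs than this class, was not part of the comparison. It had 205 cells from control and 465 from anemic mice.

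The scaling matters in these cells. With TMM scaling, edgeR's default that centres most genes on no change, the median log2 fold change of all erythroid genes was -0.004, and without it -0.35 (scaling factors 0.507 to 2.85). On library sizes alone, Car2 in the erythroid-like class stood at 0.02 and Car1 at -1.03. In hepatocyte-like cells the same medians were -0.06 and -0.27. All fold changes below are relative to these centres.

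**Figure D3:**
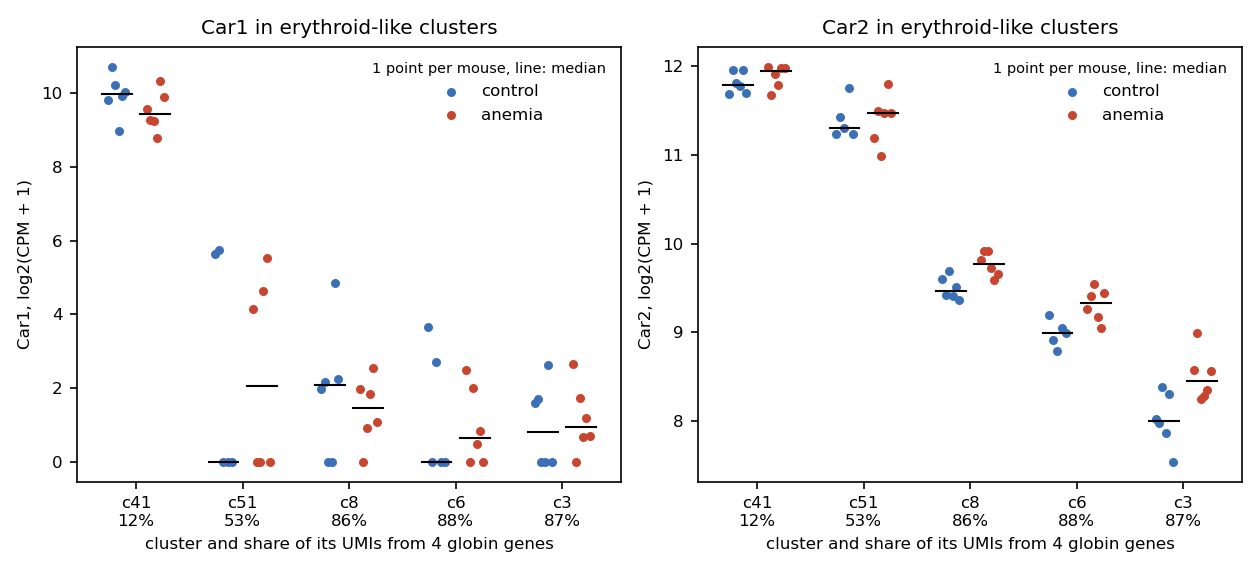
Car1 (left) and Car2 (right) in the 5 erythroid-like clusters, drawn as c41, c51, c8, c6 and c3. Their globin shares are 11.7, 52.6, 86.2, 88.0 and 87.4%. Each point is 1 mouse, and the vertical axis is log2(CPM + 1). Lines mark medians, and colours separate 6 control and 6 anemic mice (5 control mice in c51 and c6). Mean Car2 is 3712 CPM in c41 and 314 CPM in c3, and the medians of anemic mice sit above those of control mice in all 5 clusters, with overlap.

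Within these clusters, the median of Car2 was higher in anemic mice in all 5. It passed the test in the 3 globin-rich ones and not in the 2 others. In c3, control mice had 184 to 331 CPM (median 254) and anemic mice 302 to 509 CPM (median 350.3). The groups overlapped in this cluster, and the log2 fold change was 0.87 (SE 0.14, adjusted p = 6.07e-05), where 8.76% of genes were called. In c6 the values were 439 to 582 CPM (median 507, 5 control mice with enough cells) and 527 to 746 CPM (median 644), a log2 fold change of 0.55 (SE 0.12, adjusted p = 0.00658; 5.18% of genes called).

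In c8, control mice had 657 to 823 CPM (median 706) and anemic mice 770.1 to 967 CPM (median 874), a log2 fold change of 0.53 (SE 0.14, adjusted p = 0.0217; 8.41% of genes called). These groups overlapped as well. In c41, the cluster with the least globin, the values were 3297 to 3995 CPM and 3274 to 4085 CPM (log2 fold change 0.13, SE 0.09, adjusted p = 0.588; 1.13% of genes called), and in c51 the log2 fold change was 0.26 (SE 0.15, adjusted p = 0.346; 5.98% of genes called). On library sizes without TMM only c3 kept its call (0.50, adjusted p = 0.0391), with c6 at 0.33 (adjusted p = 0.117) and c8 at 0.28 (adjusted p = 0.0559), while c51 turned to -0.11.

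The difference between clusters was tested within mice, on CPM without TMM, for c3 and c8 against c41 but not for c6. The log2 level of Car2 in c3 minus that in c41 was -3.81 ± 0.27 in control against -3.39 ± 0.36 in PIA mice (SD, n = 6 per group), a difference of 0.42 (exact two-sided permutation p = 0.0325, adjusted p = 0.0649 over 2 such comparisons). The groups overlapped, and the difference did not pass after adjustment. For c8 minus c41 the difference was 0.20 (exact permutation p = 0.119, adjusted p = 0.119). The make-up of the class also differed: c3 was 57.4% of control and 32.7% of anemic erythroid-like cells, c6 15.8% and 33.0%, and c8 20.8% and 28.3%.

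Outside the erythroid lineage, Car2 was highest in NK-like cells, where it did not pass the test. Control mice had 260 to 333 CPM (median 301) and anemic mice 286 to 398 CPM (median 348), groups that overlapped (log2 fold change 0.21, SE 0.11, adjusted p = 0.483; 0.452% of genes called). In cholangiocyte-like cells the values were 118 to 288 CPM (median 208) in control and 77.1 to 183 CPM (median 137) in anemic mice (log2 fold change -0.62, SE 0.22, adjusted p = 0.454; 0.0108% of genes called). Pre-B-like cells had medians of 50.6 and 50.7 CPM, and differed by 0.02 on the log2 scale (adjusted p = 0.948; 1.51% of genes called).

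In hepatocyte-like cells Car2 stood at 60.4 to 80.3 CPM in control (median 71.0) and 53.1 to 79.9 CPM in anemic mice (median 62.5), and the class as a whole gave a log2 fold change of 0.04 (SE 0.10, adjusted p = 0.801; 48.2% of genes called), whose sign turned with the scaling (-0.18 without TMM). Its 6 clusters gave another picture. In c23, led by Apob, Cps1 and Alb, Car2 fell from 35.2 to 58.0 CPM (median 47.2) to 16.2 to 32.4 CPM (median 29.7), with no overlap and a log2 fold change of -0.74 (SE 0.18, adjusted p = 0.0132; 4.97% of genes called). In c19, led by Ahsg, Rbp4 and Ttr, it fell from 66.0 to 99.5 CPM (median 80.6) to 37.2 to 62.8 CPM (median 53.7), again with no overlap (log2 fold change -0.57, SE 0.15, adjusted p = 0.0210; 7.55% of genes called).

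The call in c19 was lost without control 1 (-0.53) or control 5 (-0.51), and that in c23 held with each mouse left out. Groups did not overlap in c15 (log2 fold change -0.36, adjusted p = 0.232) or c34 (-0.56, SE 0.17, adjusted p = 0.0606) either, yet these missed the threshold. Non-overlap was found for 3.52% of all genes in c23, 4.95% in c19, 4.29% in c15 and 3.12% in c34. The other clusters, c14 and c46, stood at -0.06 (adjusted p = 0.909) and 0.00 (adjusted p = 0.999). Cluster c15 made up 17.2% of control and 32.8% of anemic hepatocyte-like cells and c23 21.3% and 8.26%, and c15 was the cluster with the higher Car2 (medians of 136 CPM in control and 102 CPM in PIA mice). These 2 clusters also differed in depth, with median UMIs per cell of 775 in c15 and 4168.5 in c23.

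Car2 rose in 2 classes with little of it. In neutrophil-like cells, control mice had 2.03 to 14 CPM (median 6.14) and anemic mice 13.7 to 43.4 CPM (median 24.3). Only control 1 lay within the anemic range, and the log2 fold change was 2.04 (SE 0.37, adjusted p = 0.0301; 0.477% of genes called, 0.208% as higher). In B-like cells, control mice had 4.00 to 7.66 CPM (median 5.65) and anemic mice 6.61 to 13.1 CPM (median 10.1), overlapping groups with a log2 fold change of 0.74 (SE 0.20, adjusted p = 0.0420; 3.92% of genes called).

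Erythroid RNA moved with both. The summed level of 9 erythroid marker genes, all 9 detected in both groups, was 1239 to 9239 CPM in control and 14495 to 24103 CPM in anemic neutrophil-like cells, and in B-like cells the medians were 2142 and 3879 CPM, with no overlap in either class. Per 1000 UMIs of that list and pooled over mice, Car2 had 1.13 UMIs in control and 1.5 in anemic neutrophil-like cells, beside 1.37 and 1.77 in erythroid-like cells. As a mean over mice, the erythroid-like ratio was 2.11 ± 1.58 and 1.82 ± 0.494 (SD, n = 6 per group), the opposite order, and the neutrophil-like one 1.30 ± 0.517 and 1.54 ± 0.423, with overlap in both classes. In B-like cells it was 2.70 and 2.23 pooled and 3.05 ± 1.23 and 2.36 ± 0.636 over mice, above the erythroid-like ratio in both groups, whereas NK-like cells had 165 and 95.2 pooled. The list was also higher where Car2 had no class call. Its means were 2512 and 11041 CPM in hepatocyte-like cells (no overlap) and 2293 and 8566 CPM in pre-B-like cells (overlap). Pooled Car2 per 1000 of its UMIs was 30.1 in control and 5.50 in anemia in hepatocyte-like cells, and 22.4 and 5.57 in pre-B-like cells. With called doublets left out, the neutrophil value was 0.09 and no longer called. The part of erythroid RNA in these calls and in the uncalled values was not tested.

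Both calls lay near the threshold, while their size changed little with a mouse left out (1.81 to 2.33 in neutrophil-like and 0.64 to 0.84 in B-like cells). The neutrophil call was lost without control 3 (1.85), control 4 (1.88), control 5 (2.04) or control 6 (2.01), and when clusters with markers of a second class were named as well (0.60). The B-like call was lost without control 2 (0.74), control 3 (0.73), control 4 (0.70), control 5 (0.79), control 6 (0.65), anemia 1 (0.69), anemia 2 (0.72) or anemia 5 (0.64). It was also lost with the joint voom model (0.71, adjusted p = 0.280), the naming of clusters with markers of a second class (0.65, adjusted p = 0.115), a Y-linked covariate (0.65, adjusted p = 0.101), doublets left out (0.69, adjusted p = 0.0695) and at most 10% mitochondrial UMIs (0.68, adjusted p = 0.0637).

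In endothelial-like cells, Car2 as a whole was not called (log2 fold change 0.25, SE 0.13, adjusted p = 0.201). In cluster c20, led by Fabp4 and Dnase1l3, it rose from 25.3 to 57.4 CPM (median 39.1) to 69.4 to 136 CPM (median 91.3), with no overlap (log2 fold change 1.42, SE 0.25, adjusted p = 0.000418; 11.4% of genes called and 6.57% without overlap). Globin made up 7.05% of the UMIs of c20 and at most 0.639% of those of the other 4 endothelial-like clusters, in which Car2 was not called. The part of erythroid RNA in this difference was not tested.

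Car3 was the member picked for its lower level in anemia, and its values are given for their size and spread. In hepatocyte-like cells, control mice had 442 to 1234 CPM (median 801) and anemic mice 114 to 518 CPM (median 354). Control 6, the lowest control, lay within the anemic range, and anemia 2 and anemia 3 were the lowest of all at 114 and 256 CPM. The fitted log2 fold change was -1.08 (SE 0.28), and -0.74 without these 2 mice.

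The lower level was found in each hepatocyte-like cluster, and there it was larger than in the class as a whole. In c34, led by Gnmt, Uox and Ass1, control mice had 1248 to 3289 CPM (median 2200.4) and anemic mice 191 to 1169 CPM (median 698). In c15, led by Fabp1 and Uox, the values were 1307 to 2688 CPM (median 1827) and 202 to 682 CPM (median 447). The fitted log2 fold changes were -1.62 and -1.89 in these, -1.82 in c14, -1.81 in c19, -1.53 in c23 and -1.44 in c46.

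Control and anemic mice did not overlap in any of the 6 clusters, a comparison that the choice of Car3 bears on. Of all genes, 3.8% were lower without overlap in c14, 2.59% in c15, 2.98% in c19, 1.79% in c23, 1.66% in c34 and 0.72% in c46. The clusters differed in level: in control mice the medians ran from 141 CPM in c46 and 283 CPM in c23 to 1827 CPM in c15 and 2200.4 CPM in c34. The clusters with much Car3, c15 and c34, made up 17.2% and 5.62% of control and 32.8% and 11.4% of anemic hepatocyte-like cells. The clusters differed in depth as well. Median UMIs per cell were 775 in c15, 793 in c14, 1242.5 in c46, 1995 in c34, 2583.5 in c19 and 4168.5 in c23. The part of depth in the levels and shares of the clusters was not tested.

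**Figure D4:**
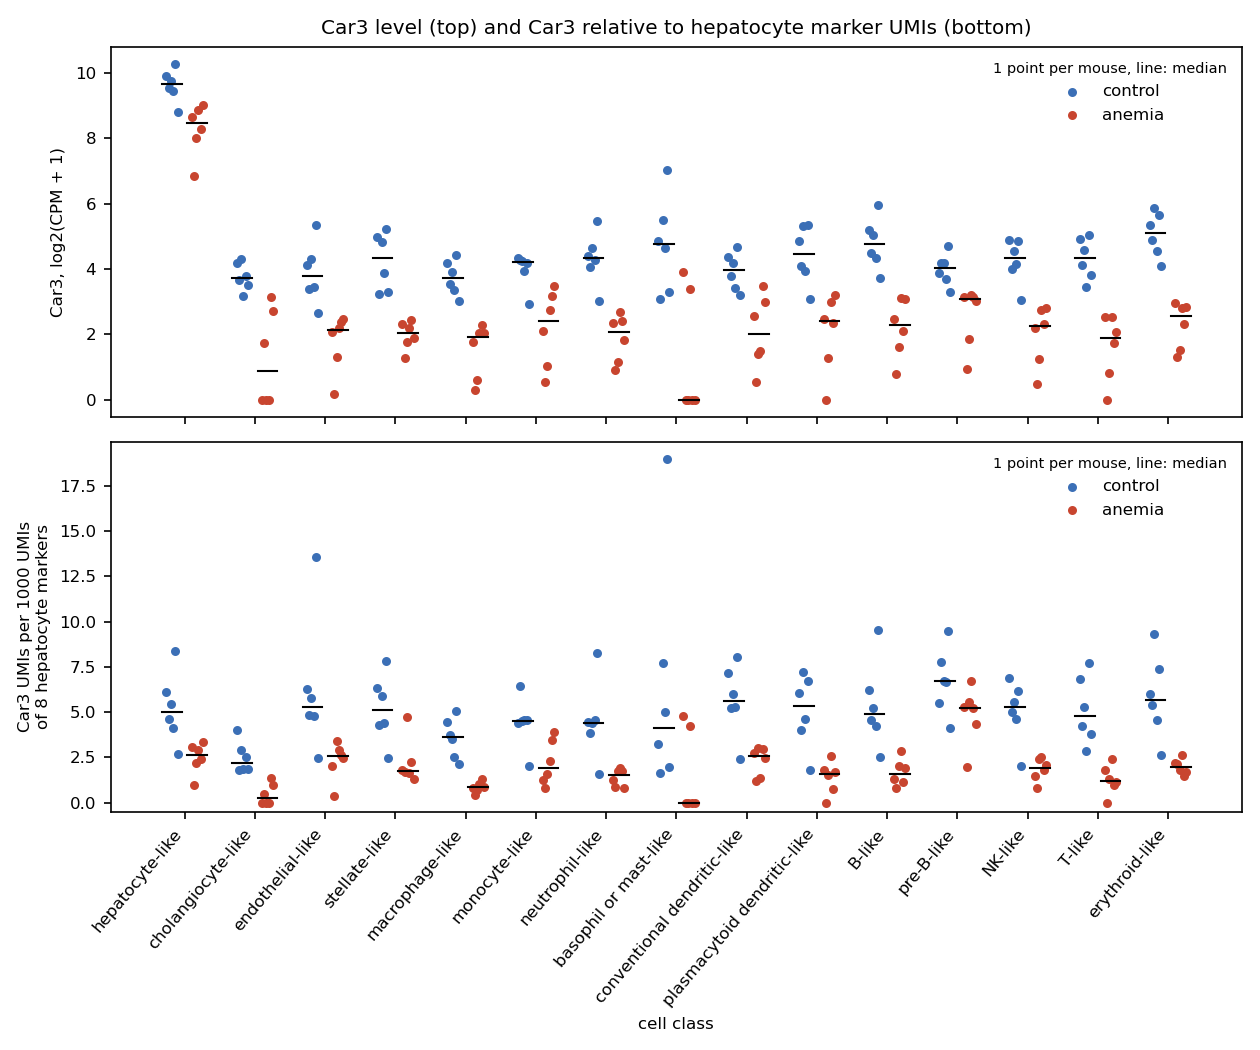
Car3 in each of 15 cell classes as log2(CPM + 1) (top) and as UMIs per 1000 UMIs of 8 hepatocyte marker genes (bottom); each point is 1 of 6 control or 6 anemic mice and lines mark the group medians. Hepatocyte-like cells range over 442 to 1234 CPM in control and 114 to 518 CPM in PIA mice, and the 14 other classes lie at group means of 13.1 to 40.2 and 2.22 to 5.79 CPM.

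Outside hepatocyte-like cells Car3 was low in every class and lower still in anemia. Over the 13 classes with enough UMIs to be fitted, hepatocyte-like cells included, the value was lower in anemia in 13 and without overlap in 9, against 2.92% of all gene and class pairs that were lower without overlap, a comparison that the choice of Car3 fixes. The fitted log2 fold change ran from -1.31 in pre-B-like to -3.04 in T-like cells over the 12 classes besides hepatocytes, and each was further from 0 than the -1.08 of hepatocyte-like cells.

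In erythroid-like cells, for example, Car3 was at 16.0 to 57.2 CPM in control (median 33.9) and 1.46 to 6.72 CPM in anemic mice (median 5.06). In B-like cells it was at 12.2 to 60.5 CPM (median 26.6) and 0.739 to 7.60 CPM (median 3.91), and in neutrophil-like cells at 7.16 to 43.3 CPM (median 19.2) and 0.871 to 5.48 CPM (median 3.32). None of these overlapped.

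Hepatocyte RNA moved with Car3 in these classes. The summed level of 8 hepatocyte marker genes, of which all 8 were detected in every class and group, was 4496 to 6340 CPM in control and 935 to 3927 CPM in anemic B-like cells, and medians were 6086 and 2514 CPM in erythroid-like cells. Cholangiocyte-like cells were the exception, with an anemia to control ratio of means of 1.05. Per 1000 UMIs of this list, pooled over mice, Car3 had 5.05 UMIs in control hepatocyte-like cells and a median of 5.18 (2.37 to 6.99) in the other 14 classes. In anemia the figures were 2.77 in hepatocyte-like cells and a median of 1.77 (0.440 to 5.28) elsewhere. The part of hepatocyte RNA in these values was not tested.

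Sex was not given by the labels, and the mice were told apart by Y-linked genes and Xist. In control mice, hepatocyte Car3 was at 746 and 959 CPM in the 2 mice with Y-linked RNA and at 442 to 1234 CPM in the 4 with Xist. In anemic mice it was at 256 to 518 CPM in 4 with Y-linked RNA and at 114 and 468 CPM in 2 with Xist. With Y-linked RNA as a covariate the fitted log2 fold change was -1.12.

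The 2 other hepatocyte isoforms did not pass the test in hepatocyte-like cells. Car5a was at 47.2 to 73.7 CPM in control (median 57.7) and 26.2 to 78.1 CPM in anemic mice (median 56.6), overlapping groups with a log2 fold change of 0.07 (SE 0.16, adjusted p = 0.768). Within the clusters it ran from -0.24 to -0.56 with adjusted p of 0.127 to 0.588. Its level over clusters followed the order of Car3 at the top, with means of 128 CPM in c34 and 91.0 CPM in c15 against 34.2 CPM in c23. These clusters differed in depth, as given above.

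Car14 was at 12.7 to 28.5 CPM in control (median 25.2) and 9.20 to 29.7 CPM in anemic hepatocyte-like cells (median 22.2), with a log2 fold change of 0.12 (SE 0.21, adjusted p = 0.667). Both this sign and that of Car5a turned without TMM, to -0.10 and -0.15. In cluster c23 Car14 was called as higher, at 12.4 to 31.6 CPM (median 23.1) in control and 16.2 to 61.9 CPM (median 38.1) in anemic mice. These groups overlapped (log2 fold change 0.85, SE 0.25, adjusted p = 0.0447), and the call was lost without TMM (0.79) and without control 1 (0.89), control 2 (0.85), control 4 (0.85), control 5 (0.86), control 6 (0.68), anemia 3 (0.84), anemia 5 (0.74) or anemia 6 (0.69).

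Car8 moved in opposite directions in the 2 large liver cell classes. In endothelial-like cells it fell from 196 to 231 CPM in control (median 219) to 69.4 to 174 CPM in anemic mice (median 119). Every anemic mouse lay below every control mouse, and the log2 fold change was -0.69 (SE 0.17, adjusted p = 0.0133) in a class where 18.1% of genes were called, 10.5% as lower. Without overlap, 10.3% of all genes differed in this class.

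In hepatocyte-like cells Car8 rose from 79.7 to 112 CPM in control (median 106) to 117 to 173 CPM in PIA mice (median 151). The groups did not overlap here either (log2 fold change 0.69, SE 0.11, adjusted p = 5.86e-05), in a class where 23.3% of genes were called as higher and 25.3% of all genes did not overlap. The value was 0.40 at a stricter limit of 10% mitochondrial UMIs per cell and 0.48 without TMM, both still called.

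The contrast between the classes is given as a value, since 2 opposite changes without overlap fix the outcome of a permutation test. The log2 level in hepatocyte-like minus endothelial-like cells of the same mouse was -1.09 ± 0.22 in control against 0.31 ± 0.59 in PIA mice (SD, n = 6 per group), a difference of 1.40.

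Without anemia 2 and anemia 3 the values were -0.48 (adjusted p = 0.0162) in endothelial-like and 0.73 (adjusted p = 3.39e-05) in hepatocyte-like cells.

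The fall in endothelial-like cells was called in 4 of their 5 clusters. In c2, led by the sinusoidal genes Dnase1l3 and Clec4g, Car8 fell from 212 to 254 CPM (median 238) to 58.3 to 179 CPM (median 113), with a log2 fold change of -0.89 (SE 0.21, adjusted p = 0.0112; 13.9% of genes called). In c12, led by Fgf23 and Adam23, it fell from 201 to 228 CPM (median 221) to 63.7 to 173 CPM (median 122), with a log2 fold change of -0.68 (SE 0.17, adjusted p = 0.0106; 16.5% of genes called). Neither overlapped, against 8.24% and 9.85% of all genes without overlap, and both held with each mouse left out.

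The smaller clusters c20 and c22 also passed, less firmly. Car8 was at 121 to 246 CPM (median 162) and 67.9 to 119 CPM (median 95.6) in c20, without overlap (log2 fold change -0.61, SE 0.20, adjusted p = 0.0471; 11.4% of genes called). This call was lost without control 1 (-0.54), control 3 (-0.63), control 5 (-0.50), control 6 (-0.65), anemia 2 (-0.54), anemia 3 (-0.60), anemia 5 (-0.56) or anemia 6 (-0.66). In c22 it was at 158 to 190.3 CPM and 76.5 to 166 CPM, which overlapped (log2 fold change -0.53, SE 0.15, adjusted p = 0.0262; 9.97% of genes called), and the call was lost without control 5 (-0.51), control 6 (-0.51), anemia 3 (-0.48), anemia 4 (-0.50) or anemia 5 (-0.47). The Vwf-marked cluster c28 was not called, at medians of 239 and 169.5 CPM (log2 fold change -0.34, adjusted p = 0.491; 0.583% of genes called).

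**Figure D5:**
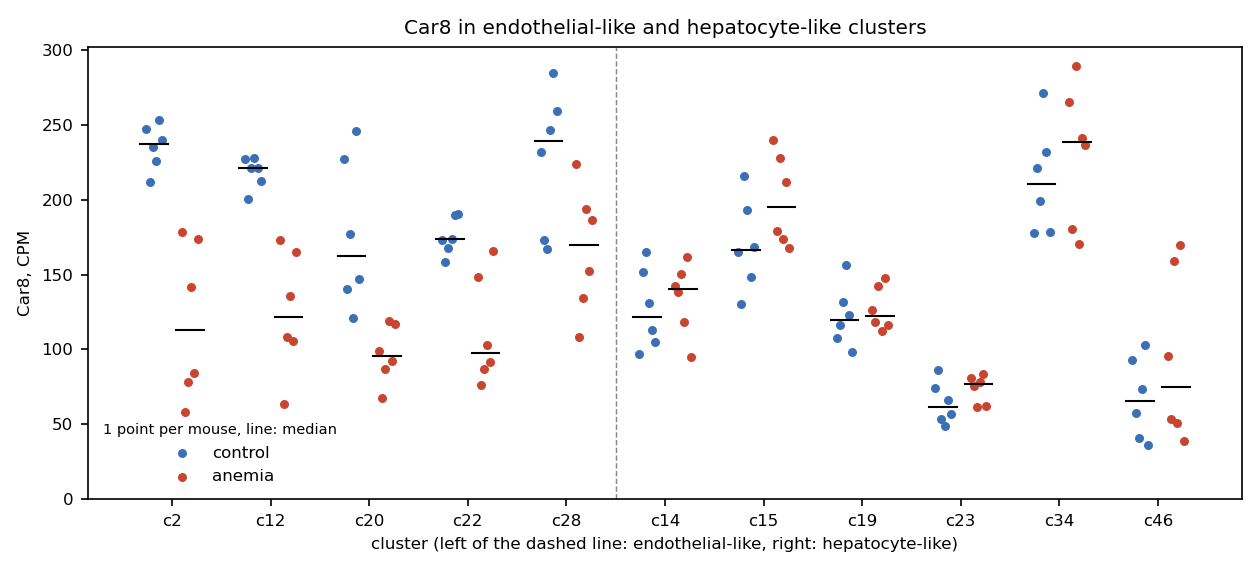
Car8 level in CPM in the 5 endothelial-like clusters (left of the dashed line) and the 6 hepatocyte-like clusters (right); each point is 1 mouse, lines mark medians, and colours separate 6 control and 6 anemic mice. Control mice lie above anemic mice in the endothelial-like clusters c2, c12 and c20, and the groups overlap in all 6 hepatocyte-like clusters.

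The rise in hepatocyte-like cells was not called within any of their 6 clusters, in which 8.74% (c14), 6.43% (c15), 7.55% (c19), 4.97% (c23), 4.47% (c34) and 1.87% (c46) of genes were called. The log2 fold changes there were 0.12 (c19) to 0.35 (c46), all positive, with adjusted p of 0.209 to 0.815 and overlap in all 6. The clusters with most Car8 were c34 and c15, with means of 222 and 185 CPM, and those with least were c46 and c23, with 81.0 and 69.0 CPM. As given above for Car3, c15 and c34 made up larger shares of the anemic class and c23 a smaller one. The depth of these clusters, given there as well, differed too.

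In the class with the highest level, basophil or mast-like cells, Car8 was at 608 to 1199 CPM in control (median 906) and 249 to 962 CPM in PIA mice (median 864), which overlapped (log2 fold change -0.32, SE 0.24, adjusted p = 0.706; 0.923% of genes called). In cholangiocyte-like cells the medians were 119 and 140.2 CPM (log2 fold change 0.10, SE 0.15, adjusted p = 0.898). In B-like cells, where it was sparse, the groups did not overlap, at 4.00 to 5.18 CPM and 0 to 3.40 CPM, yet the test was not passed (log2 fold change -1.09, SE 0.32, adjusted p = 0.0612; 2.61% of genes without overlap). The 8-gene hepatocyte list was also lower in anemic B-like cells (anemia to control ratio 0.459, no overlap), and per 1000 of its UMIs Car8 had 0.879 UMIs in control and 0.893 in anemia, pooled over mice. In stellate-like cells, Car8 was at 4.20 to 17.8 CPM in control (median 14.8) and 10.5 to 23.5 CPM in PIA mice (median 15.4), overlapping groups that did not pass the test (log2 fold change 0.41, SE 0.26, adjusted p = 0.426). It was negative and not called in NK-like, macrophage-like, neutrophil-like, pre-B-like and erythroid-like cells (-0.34 to -1.24).

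Car4 in endothelial-like cells was decided by single mice. Control mice had 0 to 11.3 CPM (median 0.787) and anemic mice 0.233 to 24.3 CPM (median 1.60), overlapping groups with a log2 fold change of 1.16 (SE 1.08, adjusted p = 0.481). Without anemia 6, which alone held 253 UMIs, the value was -0.70. The joint voom model, which has no term for the mouse, called it (2.49, adjusted p = 1.41e-05).

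Among the 9 other carbonic anhydrase genes, 22 of 135 pairs could be tested, and the 3 calls were all in endothelial-like cells, where 7.53% of genes were called as higher and 10.5% as lower. Car13, the cytosolic isoform next to Car1, rose from 4.68 to 7.02 CPM (median 5.29) to 11.2 to 25.6 CPM (median 15.2), with no overlap and a log2 fold change of 1.75 (SE 0.20, adjusted p = 6.99e-05). It was called with each mouse left out. In pre-B-like cells, its highest class, Car13 was not called (log2 fold change 0.10, SE 0.13, adjusted p = 0.798).

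The make-up of the endothelial-like class differed between the groups. Cluster c28 made up 6.62% of its control and 10.9% of its anemic cells, and c2 51.1% and 42.3%. In the class as a whole Car7, also cytosolic, rose from 1.29 to 2.48 CPM (median 2.12) to 1.31 to 4.34 CPM (median 4.03), with overlap (log2 fold change 0.91, SE 0.24, adjusted p = 0.0178). Car11, like Car8 a non-catalytic relative, fell from 2.95 to 6.13 CPM (median 4.23) to 1.71 to 4.30 CPM (median 2.18), with overlap (log2 fold change -0.79, SE 0.24, adjusted p = 0.0344). The Car11 call was lost without control 1 (-0.68), control 2 (-0.66), control 4 (-0.76), anemia 1 (-0.69), anemia 2 (-0.78), anemia 4 (-0.82), anemia 5 (-0.76) or anemia 6 (-0.74). Car9, an enzyme known as a hypoxia target, was not called in its 5 tested classes and stood at 11.8 to 63.9 CPM (median 30.1) in control and 11.2 to 48.5 CPM (median 15.9) in anemic cholangiocyte-like cells.

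The proteins that move CO2, bicarbonate and protons across membranes were followed beside the enzymes, by a list of 22 genes. In hepatocyte-like cells 15 could be tested, of which 3 rose and 11 fell, with a median log2 fold change of -0.81 against -0.06 for all genes, of which 48.2% were called. The clusters of this class differed in share between the groups, as given above, and the lists were not fitted within clusters. The anion exchanger of red cells, Slc4a1, rose from a median of 1.59 to 4.66 CPM (log2 fold change 1.82, SE 0.28, adjusted p = 4.93e-05), while the 9-gene erythroid list in the same class summed to 821 to 5942 CPM in control and 7234 to 18957 CPM in PIA mice. The sulfate transporter Slc26a2 fell by 1.28 (adjusted p = 0.00882), the ammonium transporter Rhbg fell by 1.26 (adjusted p = 0.000569) and the lactate exporter Slc16a3 rose by 1.11 (adjusted p = 0.0315) on the log2 scale. The sodium bicarbonate cotransporter Slc4a4 was at medians of 216 and 123 CPM and fell by 0.58 (adjusted p = 0.00147).

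Of 8 enzymes that use bicarbonate, 6 could be tested in hepatocyte-like cells. Acetyl-CoA carboxylase Acaca fell from a median of 63.1 to 34.8 CPM (log2 fold change -0.70, SE 0.13, adjusted p = 0.000253) and Mccc2 rose by 0.27 (adjusted p = 0.0483). Cps1, which consumes the bicarbonate that mitochondrial carbonic anhydrase provides, was at medians of 1011 and 979 CPM and was not called (log2 fold change 0.02, SE 0.13, adjusted p = 0.900).

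In erythroid-like cells, 13 transport genes could be tested and 1 was called, against 0.811% of all genes. It was Slc16a3, at medians of 0.912 and 3.98 CPM (log2 fold change 2.37, SE 0.54, adjusted p = 0.0460). It was sparse at these levels and also rose in hepatocyte-like and endothelial-like cells. The part of RNA from other cells in this call was not tested. The median of the 13 transport genes was -0.23 against -0.004 for all genes. The partners of carbonic anhydrase in red cells were not called, with Slc4a1 at medians of 384 and 439 CPM (log2 fold change 0.49, adjusted p = 0.262) and the Rh-associated gas channel Rhag at 96.8 and 94.5 CPM (0.29, adjusted p = 0.417). None of 5 bicarbonate-using enzymes tested there was called, against the same 0.811%.

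In endothelial-like cells, 18 transport genes could be tested, of which 4 rose and 3 fell (median 0.01 against 0.004 for all genes, of which 7.53% were called as higher and 10.5% as lower). The water and CO2 channel Aqp1 fell from 704 to 872 CPM (median 814) to 282 to 527 CPM (median 427), with no overlap (log2 fold change -0.80, SE 0.12, adjusted p = 0.000548). The lactate carriers Slc16a3 and Slc16a1 rose by 0.91 and 0.58 on the log2 scale (adjusted p = 0.000416 each).

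Genes of hepatocyte zonation were followed in the same class. Of all genes there, 24.9% were called as lower and 23.3% as higher. Of 8 pericentral genes, all tested, 5 fell and none rose (median -0.74), among them Cyp2e1 (log2 fold change -1.67, SE 0.15) and Slc1a2 (-1.93, SE 0.25). Of 8 periportal genes 5 rose and none fell (median 0.81), among them Arg1 (1.51, SE 0.11) and Cyp2f2 (1.79, SE 0.17). None of the 4 fetal genes tested was called, Afp included (0.57, SE 0.41, adjusted p = 0.266). The pericentral list was also lower outside hepatocyte-like cells, with 6 of 8 genes called as lower and 1 as higher in endothelial-like cells (median -1.03; 10.5% of genes called as lower) and 2 of 7 called as lower in erythroid-like cells (median -1.29; 0.811% of genes called in either direction). The periportal list had 1 of 8 called as lower and none as higher in endothelial-like cells (median -0.20) and no call in erythroid-like cells (median 0.15). The summed 8-gene hepatocyte list, at means of 2486 and 1194 CPM in control and anemic endothelial-like cells and 5925 and 2231 CPM in erythroid-like cells, was lower in the same classes (anemia to control ratios of 0.480 and 0.377, no overlap), and its part there was not tested. The part of zonation in the values of the members was not tested.

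The genes whose mean level over the 15 classes was most like that of each member were named by Pearson correlation of log2(CPM + 1), over 13987 genes with at least 10 CPM in a class. These are descriptions over 15 points that share libraries. Car1 was most like Redrum (r = 0.97), Asb17os (0.96) and Rhag (0.96), Car3 like Cyp3a16, Cyp2a12 and Sult2a5 (0.99 each) and Car14 like Ugt1a1, Cpn2 and Cyp2b13 (0.99 each). Car5a was most like 0610005C13Rik (0.98), Gm8883 (0.97) and 4833411C07Rik (0.97), and Car4 like Rbp7 (0.99), Rassf9 (0.98) and Gpm6a (0.97). Car2 and Car8, with several high classes, had no match above 0.89, with A930001A20Rik (0.85), Cited4 (0.83) and Syt14 (0.77) for Car2 and Lgalsl (0.89), 1500026H17Rik (0.89) and 5730420D15Rik (0.88) for Car8.

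The share of cells with a UMI was compared after thinning each cell to 1000 UMIs, with shallower cells left out. Car2 was found in 42.6% of erythroid-like cells (exact 95% interval 41.9 to 43.3%; 45.0% unthinned; 19902 cells kept and 8964 left out) and in 24.4% of NK-like cells (45.6% unthinned), against 0.985% of T-like cells, a class with little of it. The intervals cover counting error only. Median depth was 1263 UMIs per cell in erythroid-like, 2338 in NK-like cells and 2003 among T-like cells. By group, Car2 was found in 35.5% of control (3299 cells kept, 3356 left out, median depth 996 UMIs) and 44.0% of anemic erythroid-like cells (16603 kept, 5608 left out, median depth 1361 UMIs), and in 31.2% and 49.1% unthinned. The clusters of this class differed in share between the groups, as given above, and their part was not tested.

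Car3 was found in 33.9% of hepatocyte-like cells (exact 95% interval 33.0 to 34.8%; 44.4% unthinned), by group in 44.3% of control and 26.0% of anemic ones, and in 0.321 to 2.61% of the cells of other classes. Median depth was 1276 UMIs per cell in control and 1128 in anemic hepatocyte-like cells. It was 793 in cluster c14 and 775 in c15, so most cells of these 2 clusters were left out. The thinned shares in this class therefore hold for its deeper cells. Car8 was found in 35.0% of basophil or mast-like, 16.2% of endothelial-like and 12.1% of hepatocyte-like cells, against 0.314% of erythroid-like cells. By group, its share was 19% and 12.1% in control and anemic endothelial-like cells and 9.89% and 13.8% in hepatocyte-like cells, the same directions as the CPM. Car1 was found in 1.39% of erythroid-like cells, Car5a in 5.50% and Car14 in 2.27% of hepatocyte-like cells.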

How the data were processed

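Single-cell 3′ libraries of 12 mice were processed by the authors with Cell Ranger (7.0.0 in the matrix headers, mm10 per the labels), and the deposited values are raw UMI counts per gene and barcode, each barcode with at least 500 UMIs. The labels name both the v2 and the v3.1 chemistry. Totals were 46252146 to 74545930 counts per library, which sets the counting error, and sparse members could not be tested in most classes. No strand or paralog correction was added.

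Barcodes had to hold 500 to 50000 UMIs, no more than 50% of them mitochondrial, after the study's methods. Clusters (2000 variable genes without the members, 20 components, 20 neighbours, Leiden resolution 2, leidenalg 0.10.2, igraph 0.11.9) were named from fixed markers. A cluster was left unnamed where a second, unrelated class scored at least 1 and over 0.3 of the best score. Related pairs, such as B with pre-B or NK with T, were exempt. A further condition left c52 unnamed, whose best class was megakaryocyte but whose top genes held Mcpt4 and Acta1. Both conditions were added after the clusters had been seen, and the alternative naming dropped only the first. Called doublets (28645, 13.9%; 79 to 89.5% of planted doublets recovered) were kept, and left out as an alternative.

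UMIs were summed per mouse and class (at least 20 cells per mouse, 4 mice per group, mean of at least 5 UMIs, no mitochondrial or ribosomal protein genes). edgeR 4.0.16 (R 4.3.3; quasi-likelihood test, TMM, group as the only term) was run per class and per cluster, with Benjamini-Hochberg adjustment over all its genes and a threshold of 0.05. Differences between erythroid clusters within mice were tested by exact two-sided permutation on log2(CPM + 1) (scipy 1.17.1). DESeq2 1.42.0, a joint limma 3.58.1 voom model after the study's methods, other scalings, filters, namings and left-out mice were alternatives. The joint model covered the 15 classes named here and had no term for the mouse. On simulated counts, the test recovered 74.7% of changes of 1 on the log2 scale in hepatocyte-like, 73.7% in endothelial-like and 37.6% in erythroid-like cells. There 200 genes changed, in both directions, and all others did not. In the data 48.2% of hepatocyte-like genes were called, so these rates may not carry over. The members, gene lists and tests were chosen with earlier results of these data known. Named genes were the 7 members, the 9 other family genes, the 3 most alike genes of each member, and up to 4 genes of each list with the largest called change in hepatocyte-like and erythroid-like cells. Genes named beyond these (Slc4a4, Cps1, Rhag, the endothelial and zonation genes, cluster results outside erythroid-like cells) were chosen after their values were seen. Positions and 30-base stretches are from GENCODE M21 (GRCm38). Nothing in the labels says that same-numbered mice were paired.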

Additional observations from a re-analysis of the deposited data

Results flagged for a closer look

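In 6 of the 102 groups of 6 mice tested, 1 mouse lay far from the others by Dixon's criterion, which chance gives in about 5% of groups. Car1 in endothelial-like cells was at 6.24 CPM in control 5, with the next mouse at 0.968 CPM. Car1 in erythroid-like cells was at 529 CPM in control 3 (next 208 CPM), the mouse with 197 such cells. Car1 in hepatocyte-like cells was at 14.1 CPM in control 6 (next 3.16 CPM), from 49 UMIs. Car1 in pre-B-like cells was at 1.29 CPM in control 2 (next 0.594 CPM), from 6 UMIs. Car4 in endothelial-like cells was at 11.3 CPM in control 3 (next 3.79 CPM) and at 24.3 CPM in anemia 6 (next 4.30 CPM).

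The anemia difference of Car8 was not the same in 2 cell classes: its log2 level in hepatocyte-like minus endothelial-like cells was higher in anemic mice by 1.40. The groups did not overlap in either class, in opposite directions, and the difference itself was not tested. The rise in hepatocyte-like cells was not called within any of their clusters, whose shares of the class differed between the groups.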

How the results depend on the processing

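The count of called pairs of a member and a class was 4 of 38 (6.59% over all genes), and 7 of 38 with DESeq2 (8.11%), 7 of 84 without a filter on low counts (3.71%), 7 of 38 with a replicate block (6.79%), 2 of 14 with a mean of at least 50 UMIs (9.64%) and 2 of 32 with doublets left out (7.3%). With each mouse left out it was 2 to 5 (5.23 to 6.7% over all genes), and 2 without control 3, 4, 5 or 6. The pairs with a higher level in anemia numbered 23 of 38, 46 without a filter and 7 at a mean of at least 50 UMIs. Car2 in erythroid-like cells was called with DESeq2 (0.56) and the joint voom model (0.61), and Car1 there was 0.21 with doublets left out. Car2 within erythroid clusters had 1 call without TMM instead of 3 (c6 0.33, c8 0.28, c51 -0.11). Near 0, signs turned in hepatocyte-like cells without TMM, at a mean of at least 50 UMIs and at 10% mitochondrial UMIs for Car2 (-0.18, -0.090, -0.21; doublets out -0.034), Car5a (-0.15, -0.057, -0.24; Y-linked covariate -0.00058) and Car14 (-0.10, -0.0017, -0.13). With a mouse left out, Car2 ran from -0.020 to 0.089, Car14 from -0.016 to 0.25 and Car4 in endothelial-like cells from -0.70 to 2.43. Car8 in cholangiocyte-like cells turned to -0.064 under the other naming. Car3 was -1.82, -1.89 and -1.81 within clusters c14, c15 and c19. Shares of cells with a UMI were 45.0% unthinned and 67.2% at 2000 UMIs (Car2, erythroid-like), 44.4% and 43.9% (Car3, hepatocyte-like) and 45.2% and 28.4% (Car8, endothelial-like). The causes were not tested. Over all alternatives, 608 values stayed the same, 62 were no longer called, 3 became called, 21 moved and 18 turned. A tested fold change was the same if it kept its direction and side of the threshold. Counts had to stay within 1.5-fold, Car3 fold changes and levels within 1 SD between mice, and shares within their 95% interval.

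Same-numbered mice did not deviate together for every number (90 pairs over 15 classes, r from -0.27 to 0.32, median 0.05, 29 above 0.1). Compared with all 6 anemic mice, the control mouse correlated best with its own number in 27 of 90. Number 4 was positive in 15 of 15 classes and best in 12, whereas number 3 was positive in 2 and number 6 in 4. The replicate block is an added term without a design behind it, and it gave 7 calls instead of 4, while Car7 (0.89) and Car11 (-0.77) in endothelial-like cells were no longer called. Depth limits the sparse members, of which 38 of 90 pairs of a gene and a class had enough UMIs for a test.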

Other observations

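An unnamed cluster, c52, of 670 cells held Car1 at 1457 CPM and Car2 at 941 CPM, above the erythroid-like class for Car1, and its sub-clusters differed. Car1 was highest in a sub-cluster of 73 cells that no class's markers set apart (highest score 0.18), at 2439.8 CPM from 2018 UMIs, with Car2 at 889.8 CPM, Pf4 at 2.42 CPM and the transcription factors Klf1 and Gata1 at 56.8 and 84.6 CPM. A sub-cluster of 139 cells had Car1 at 2160.2 CPM and Car2 at 1686 CPM, and another of 64 cells, 4 from control and 60 from anemic mice, had 1725 and 1669 CPM with the heme synthesis gene Alas2 at 694 CPM. The platelet gene Pf4 was at 9224 CPM in a sub-cluster of 69 cells and 17358 CPM in one of 38 cells, with Car1 at 30.0 and 0 CPM. In 2 further sub-clusters with raised megakaryocyte markers, of 82 and 106 cells, Pf4 was at 3439 and 189 CPM and Car1 at 267 and 1337 CPM.

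A sub-cluster of 33 cells with the mast cell proteases Mcpt4 and Cma1 held Car8 at 304 CPM, from 12 of 39510 UMIs. In a sub-cluster of 17 cells (2 from control and 15 from anemic mice) with the muscle genes Acta1 (41170 CPM) and Ckm (31468 CPM), Car3 was at 5394 CPM, from 144 of 26694 UMIs, above its level in hepatocyte-like cells. These sub-clusters were chosen after their values were seen, and they were not compared between groups.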
